A study of Mus musculus with 6 samples.

Results

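The genes described here copy DNA or prepare the cell for doing so at the passage from G1 into S phase. They are 32 named members, matched by gene symbol on an Illumina mouse bead array that carried 45281 probes, of which 67 belong to a member. The arrays measured RNA from cultured mouse mammary epithelial cells, the cells that form the ducts and milk-producing alveoli of the gland. The WT cultures were Jarid1b+/+ and the KO cultures Jarid1b-/-, with 3 arrays each. Kdm5b is the current symbol of Jarid1b, the gene of a histone H3 lysine 4 demethylase. All were early-passage cultures of otherwise unspecified strain, sex and age, harvested before confluence and arranged as 3 pairs lettered A, B and C, with 1 WT and 1 KO culture in each. The sources used here do not say how the KO allele was made.

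Replication is prepared in G1, when the MCM helicase is loaded onto origins with the help of Cdc6 and Cdt1. At the start of S phase Cdc45 and the GINS complex join the helicase, and polymerases, a sliding clamp and a supply of deoxynucleotides complete the machinery. Many of these genes are transcribed together under E2F factors. The retinoblastoma proteins hold these factors back until G1 cyclins, cyclin E among them, and their kinases release them. Transcripts of the genes are therefore commonly high in dividing cultures and low in resting ones.

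A probe counted as detected where its detection p, a comparison with the negative control beads of its array, was under 0.05, and it entered the test where it was detected on at least 3 of the 6 arrays. This filter was met by 41 of the 67 member probes and by 29 of the 32 genes, each represented by its brightest tested probe. Pola1, the catalytic subunit of polymerase alpha, and Prim1, the primase that starts each new strand, were detected on no array. Ccne2, a cyclin E, was detected on the KO array of pair A only. Of the 29 tested genes 21 were detected on all 6 arrays. The rest passed on 3 to 5 arrays, and 7 of the 29 were detected on more KO than WT arrays, so the tested genes are not a neutral sample of the list.

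Arrays had 17033 to 18686 detected probes. The KO array of pair B was the dimmest, with a mean raw intensity of 210.9 against 238.9 to 268.3 on the others, and quantile normalisation set all arrays to one distribution. Kdm5b was detected on all 3 WT arrays and on no KO array by each of its 3 probes, but the sources used here do not say whether these probes lie in the deleted part. Of 10 epithelial markers 9 were detected on every array, among them Krt8, Krt14 and Cdh1, while the array's Epcam probe was detected on none. Whether the cultures stem from different animals is not stated in the labels. The p-values therefore reflect the spread among these 6 arrays, which may be technical, and so small a number of arrays limits precision.

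In pair A every tested member had a higher value in the KO culture than in its WT partner, and 25 of 29 were higher by more than 1 on the log2 scale. Among all 10416 genes tested, 3.35% did so in that pair. The median difference over members was 1.84, or 3.57-fold, and without background correction 0.87, or 1.82-fold. On WT of pair A 6 of the 29 were not detected, 3 of them (Cdc45, Gins1 and Tk1) among those higher by more than 1. In pair C, 25 of 29 members were higher in KO, with a median of 0.25, or 1.19-fold, and 1 by more than 1 (2.90% of all genes). In pair B 12 were higher and 17 lower, with a median of -0.03, and 1 was lower by more than 1 (0.547% of all genes). KO exceeded WT in all 3 pairs for 10 of 29 members and for 1356 of 10416 genes (13.02%). Over all genes the medians of the pairs, in the same order as their letters, were -0.01, -0.03 and -0.03. There was 1 array per genotype in a pair, so these differences have no replicate check within it. With each array scaled to its median, 5 members were higher and 24 lower in KO in pair B, where the all-gene median was -0.31. At most 5 could then be higher in all 3 pairs, so the count of 10 depends on the normalisation. Before normalisation Mcm2, Cdc6, Rrm1 and E2f1 read lower in KO of pair B than in WT (E2f1 138.2 against 142.9). Mcm3 read higher (113.6 against 111.7).

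**Figure D1:**
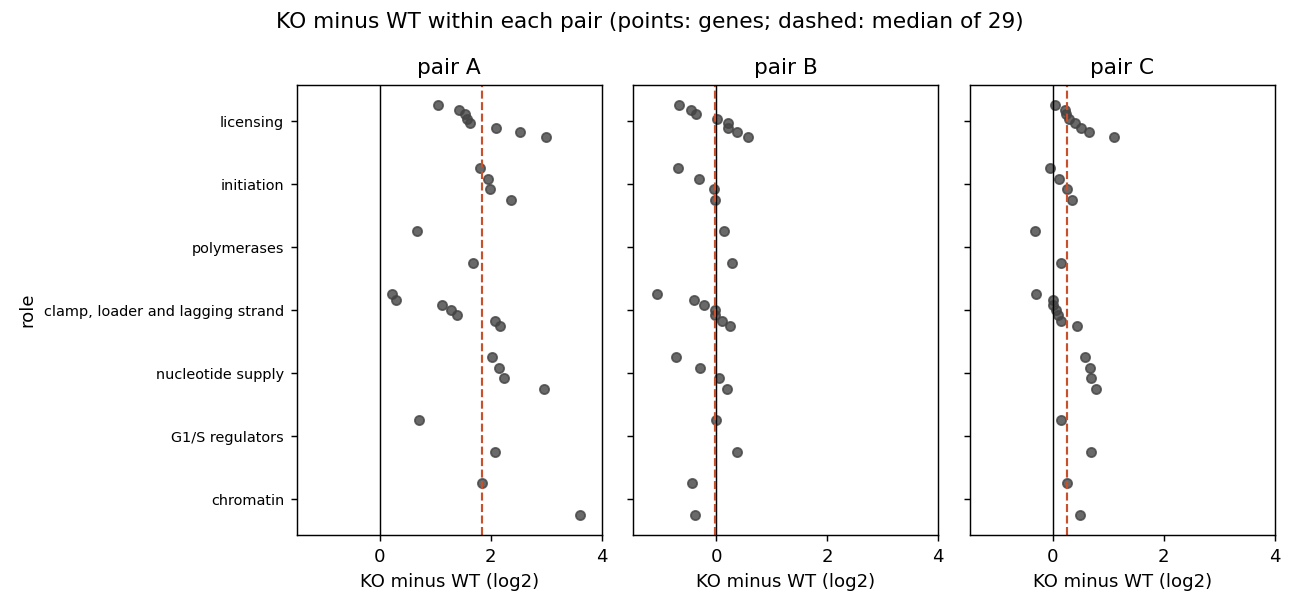
KO minus WT (log2 intensity, horizontal axis) within pairs A, B and C, with 1 point per tested gene arranged by role and a dashed line at the median of the 29 genes. All points of pair A lie above 0, those of pair B lie on both sides of it, and 25 of 29 in pair C lie above it.

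Taken as groups of 3 arrays, KO and WT differed by a median of 0.63 over the 29 members, beside -0.01 over all genes tested. A higher KO mean was found for 28 members and for 48.2% of all genes. No member passed. The number with an adjusted p under 0.05 was 0 of 29 (limma, Benjamini-Hochberg over all genes), where 3 of 10416 genes passed (0.0288%), 2 of them higher in KO (0.0192%). The smallest adjusted p of a member was 0.99988 in limma. At an unadjusted p under 0.05 there were 2 members, both higher in KO, beside 1.49% of all genes higher and 1.76% lower at that level. Over all genes 155 were higher and 183 lower at that level, or 61 and 261 with each array scaled to its median. A fit with the replicate block of pair letters put 6 of 29 members at an unadjusted p under 0.05, all higher, beside 4.00% of genes higher and 4.68% lower, and the smallest adjusted p of a member was 0.473. Left without both arrays of pair A, a choice made after seeing the data, the median was 0.07, with 19 of 29 members higher and 0 at an unadjusted p under 0.05. Without KO of pair B alone the median was 1.12, with 21 of 29 at an unadjusted p under 0.05 and 0 at an adjusted one. In that fit 768 of 10416 genes were at the unadjusted level, 455 higher and 313 lower in KO. Without WT of pair C the median was 1.01, with 7 and 0 members, beside 272 genes higher and 286 lower at the unadjusted level.

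The WT culture of pair C stood above the other two for most members. It read above both other WT arrays for 26 of 29 members (48.98% of all genes did), and it exceeded WT of pair A by a median of 1.04, against 0.08 over all genes. WT of pair B exceeded WT of pair A by a median of 0.22. KO of pair A was the highest array for 24 members and KO of pair C for the other 5. WT of pair A was the lowest for 17, KO of pair B for 8 and WT of pair B for 4. The highest array was thus a KO array for every tested member, and the lowest was of either genotype. KO of pair A read above every WT array for 28 of 29 members (24.6% of all genes) and KO of pair C for 24 (27.4%). Pole, Pcna, Rfc3 and Ccne1 passed the detection filter on 1 WT and 2 KO arrays, which favours a KO maximum.

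**Figure D2:**
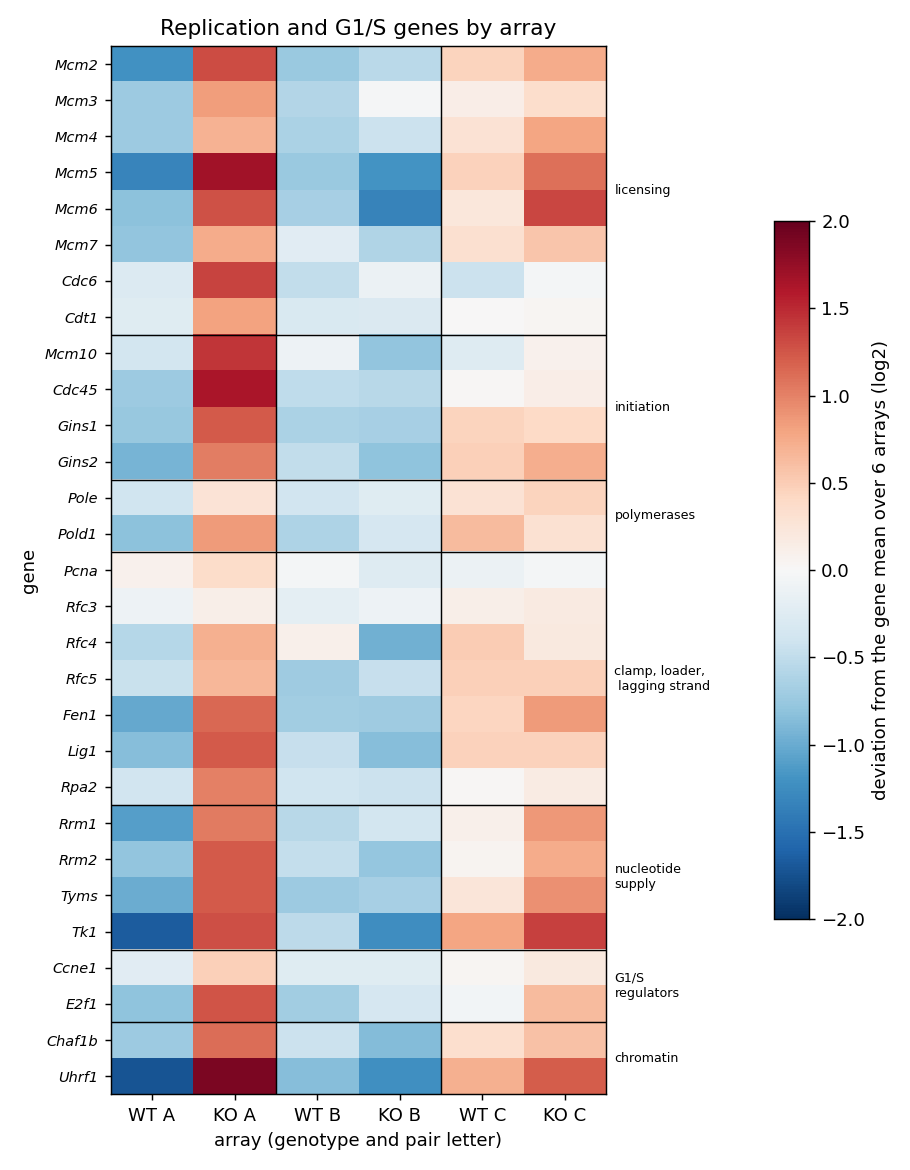
Each tested gene's deviation from its own mean over the 6 arrays (log2 intensity, colour scale from blue to red), with genes in rows by role and arrays in columns by pair. KO of pair A and both arrays of pair C are mostly red, WT of pair A and both arrays of pair B mostly blue.

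The licensing genes, which load the helicase, had 8 tested members of 8, all with a higher KO mean (median 0.79) and all higher in KO in pairs A and C. In pair B 5 of the 8 were higher. Mcm3, a helicase subunit, read 4.81, 4.95 and 5.67 (log2 normalised intensity) in WT of pairs A, B and C and 6.37, 5.52 and 5.89 in KO. Every KO culture was above its own WT partner, but the groups overlapped because WT of pair C exceeded KO of pair B. The WT mean was 5.14 ± 0.46 and the KO mean 5.93 ± 0.43 (SD, n = 3 each), so that KO exceeded WT by 0.79 (SE 0.31, limma adjusted p = 0.99988, unadjusted p under 0.05). Its probe was dim, and without background correction the difference was 0.26.

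Cdc6, the ATPase that helps load the helicase at origins, read 4.89, 4.67 and 4.72 in WT and 6.51, 5.04 and 5.12 in KO. It was the only member whose groups did not overlap, 1 of 29 beside 3.11% of all genes with KO wholly above WT. Its log2 difference of 0.80 (SE 0.39) came with KO values spread over 0.82 (SD, n = 3) against 0.12 in WT, and it was 0.39 in pairs B and C alone. Without background correction the difference of this dim probe was 0.25. Before normalisation its KO value of pair B (105.17) lay below every WT value (105.97 to 111.9). Mcm2 read 5.48, 5.95 and 7.15 in WT and 8.0, 6.16 and 7.43 in KO. Each KO value again lay above its partner, by 2.53, 0.21 and 0.28. The largest gap in pair A among the licensing genes belonged to Mcm5, at 3.00 or 8.02-fold (4.90-fold without background correction), while pairs B and C gave -0.45 and 0.64.

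Among the other licensing genes, KO of pair A was the highest array for Mcm7 and Cdt1 and KO of pair C for Mcm4 and Mcm6. Mcm4 was higher in KO by 1.42, 0.21 and 0.50 in pairs A, B and C, and Mcm7 differed by 1.53, -0.38 and 0.24. Cdt1, which brings the helicase to origins and is destroyed in S phase, differed by 1.04, 0.01 and 0.04, so its gap was almost wholly in pair A. Mcm6 differed by 2.09, -0.68 and 1.11, the largest gap of any member in pair C. A second tested Mcm6 probe gave 2.23, -0.00 and 0.63. Mcm6 is also a neighbour of Kdm5b, less than 10 Mb away on chromosome 1 (GRCm38.p6).

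E2F factors bind a short GC-rich element in many promoters of this family, so the members' promoter windows were searched for its letters. RefSeq windows (GRCm38.p6, 250 bases before to 50 after a start) were at hand for 27 of the 32 members. The letters searched were TTTCCCGC, TTTCGCGC, TTTGCCGC and TTTGGCGC on either strand, where matches may overlap each other. They occurred in 11 of the 27 genes (40.7%), against 704 of 27025 genes in the RefSeq table (2.60%) and 382 of 8365 tested genes with a window (4.57%). For comparison, the CCAAT letters on either strand occurred in 55.6% of members, 41.1% of all genes and 42.6% of tested genes. The letters TTTGAA and TTCGAA, searched in the same way, occurred in 18.5%, 21.7% and 16.2%. A match is a string of letters and not a measured site. The 3 stretches below are shown because they hold the letters before the annotated gene and outside every other annotated gene. Cdc6, Mcm7, Uhrf1 and Pola1 also hold letters before the start, but these do not meet that rule. They run 5′ to 3′ on the gene's strand and have the matched letters in capitals.
Mcm5, chr8:75109316-75109467, plus strand: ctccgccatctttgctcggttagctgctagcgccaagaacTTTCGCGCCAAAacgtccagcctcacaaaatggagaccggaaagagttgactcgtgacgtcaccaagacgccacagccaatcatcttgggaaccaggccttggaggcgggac
Mcm6, chr1:128359706-128359855, minus strand: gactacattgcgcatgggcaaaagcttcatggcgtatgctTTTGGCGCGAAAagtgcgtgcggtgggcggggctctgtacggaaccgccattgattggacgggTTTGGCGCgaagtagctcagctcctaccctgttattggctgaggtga
Rfc3, chr5:151651209-151651258, minus strand: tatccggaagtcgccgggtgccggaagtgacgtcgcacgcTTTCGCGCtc

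In the Mcm5 and the first Mcm6 stretch of capitals, matches on opposite strands overlap. Mcm6 holds 3 matches, which begin 110, 106 and 47 bases before the start. The 10 tested members with the letters had a median KO minus WT of 0.67, and the 15 tested members with a window but without them 0.80. In pair A these medians were 1.64 and 2.02. These are descriptions without a test, and E2f1 itself was among the genes without these exact letters.

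**Figure D3:**
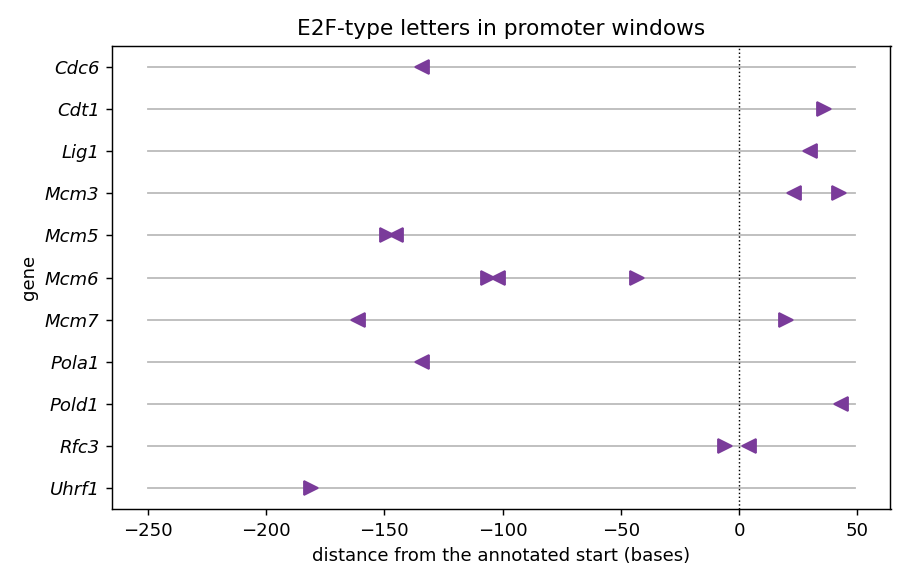
Positions of the E2F-type letters in the promoter windows of the 11 members that hold them, as distance in bases from the annotated start (dotted line), with arrowheads for the strand relative to the gene. Mcm6 holds 3 matches before the start, and Cdt1, Lig1, Mcm3 and Pold1 hold theirs after it only.

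Initiation factors, which turn the loaded helicase into a moving fork, gave 4 tested members of 4, whose median was 1.97 for pair A, -0.18 for pair B and 0.18 for pair C. Cdc45, which travels with the helicase, read 4.48, 4.69 and 5.23 in WT and 6.84, 4.66 and 5.35 in KO. It was not detected on WT of pair A, its KO value stood apart in pair A alone, and the group difference was 0.82 (SE 0.53). Gins1 and Gins2 encode subunits of GINS. Gins1 read 4.55, 4.69 and 5.76 in WT and 6.54, 4.65 and 5.71 in KO, with WT of pair A not detected and with WT and KO nearly level in pairs B and C. Gins2 read 5.27, 5.70 and 6.67 in WT and 7.23, 5.39 and 6.93 in KO, and the second brightest of its 3 tested probes differed in pair C by -0.22. Mcm10, an initiation factor that is no helicase subunit, had tight WT values (6.27 ± 0.13, SD, n = 3), and its KO minus WT was 1.80, -0.69 and 0.35. All 4 initiation genes were lower in KO in pair B.

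Polymerase genes could be followed for 2 of 4 members. Pold1, the catalytic subunit of the polymerase that extends the lagging strand, read 6.09, 6.30 and 7.54 in WT and 7.76, 6.58 and 7.22 in KO. It was higher in KO in pairs A and B and lower in pair C. Pole, the counterpart for the leading strand, read 4.33, 4.34 and 5.02 in WT and 5.00, 4.48 and 5.17 in KO. It was detected on only 1 WT and 2 KO arrays, so its difference of 0.32 (SE 0.27) is limited by background.

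Clamp, clamp loader and lagging-strand genes had the lowest pair A median but one, at 1.28 over 7 members. Fen1, the nuclease that trims the flaps between lagging-strand fragments, read 7.12, 7.46 and 8.58 in WT and 9.29, 7.43 and 9.0 in KO, a log2 difference of 0.86 (SE 0.56). Its values were high in KO of pair A and in both arrays of pair C. Rpa2, a subunit of the protein that coats single-stranded DNA, read 5.08, 5.06 and 5.48 in WT and 6.47, 5.03 and 5.62 in KO. Rfc5, a clamp loader subunit, read 5.56, 5.29 and 6.48 in WT and 6.67, 5.54 and 6.48 in KO, with WT and KO of pair C level. Lig1, the ligase that seals the fragments, differed by 2.08, -0.40 and 0.00 at its brightest probe. A further Lig1 probe, detected on every array, gave -0.28, -0.38 and -0.20 and so did not share the gap of pair A.

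Pcna, the sliding clamp, and Rfc3, a clamp loader subunit, had the smallest gaps in pair A. The tested Pcna probe was dim, detected on 1 WT and 2 KO arrays, and differed by 0.28, -0.23 and 0.08. Rfc3 was equally dim, at 0.22, 0.10 and 0.06. Rfc4 was the only member with a lower KO mean (log2 difference -0.03, SE 0.46), from 1.28, -1.07 and -0.31 in the pairs, and its sign turned without background correction. Over the 21 members detected on all arrays the pair A median was 1.84, and over the 8 detected on fewer arrays 1.35. These 8 fell apart. Pole, Pcna, Rfc3 and Ccne1, detected on 3 arrays, had pair A gaps of 0.22 to 0.71. Cdc45, Gins1, Rrm2 and Tk1, detected on 5, had gaps of 1.99 to 2.96.

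Nucleotide supply genes had all 4 members tested, with the largest median of any role with more than 2 tested members (0.96), and with all 4 higher in KO in pairs A and C. Rrm1, the large subunit of ribonucleotide reductase, read 6.25, 6.80 and 7.44 in WT and 8.39, 6.99 and 8.21 in KO. Each KO culture lay above its partner, and the log2 difference was 1.03 (SE 0.45, limma adjusted p = 0.99988). Rrm2, the small subunit made mainly in S phase, read 4.59, 4.90 and 5.43 in WT and 6.60, 4.60 and 6.12 in KO. Tyms, which makes thymidylate, read 7.02, 7.30 and 8.26 in WT and 9.25, 7.35 and 8.94 in KO. For Tyms the gap was 2.23 in pair A, 0.68 in pair C and 0.05 in pair B. A further Tyms probe, dimmer and detected on all arrays, gave 0.09, 0.65 and -0.32. Tk1, the thymidine salvage kinase, ranged in WT from 4.43 in pair A, where it was not detected, to 6.88 in pair C, and its KO minus WT was 2.96, -0.72 and 0.58. The 2.96 is therefore a difference from a value at background.

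The G1/S regulators were 2 tested genes of 3. E2f1, an activating E2F factor and itself an E2F target, read 5.86, 5.97 and 6.61 in WT and 7.93, 6.34 and 7.31 in KO. Each KO culture lay above its WT partner, by 2.07, 0.37 and 0.69, while KO of pair B lay below WT of pair C. The WT mean was 6.15 ± 0.41 and the KO mean 7.19 ± 0.80 (SD, n = 3 each), so that KO exceeded WT by 1.04 (SE 0.42, limma adjusted p = 0.99988, unadjusted p under 0.05). With the replicate block its SE was 0.32 and its adjusted p = 0.473 in limma. Ccne1, a cyclin E, read 4.40, 4.39 and 4.68 in WT and 5.11, 4.39 and 4.82 in KO, and was detected on 1 WT and 2 KO arrays.

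**Figure D4:**
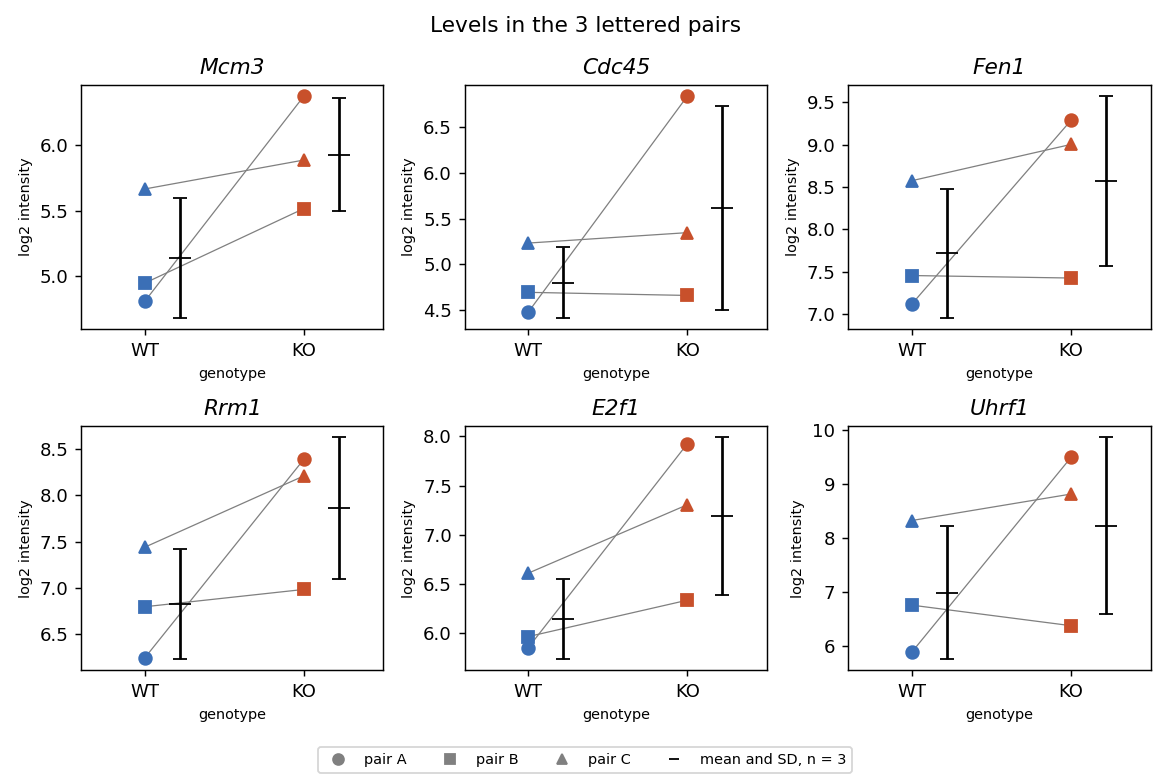
Log2 normalised intensity of the member with the smallest unadjusted p in each of 6 roles (Mcm3, Cdc45, Fen1, Rrm1, E2f1 and Uhrf1), WT in blue and KO in red, with lines joining the 2 cultures of a pair and black bars for mean and SD (n = 3). For Mcm3, Rrm1 and E2f1 the KO end of all 3 lines is higher, while the line of pair B is flat or falls for Cdc45, Fen1 and Uhrf1.

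Both chromatin genes were tested. Uhrf1, which reads newly copied half-methylated DNA and recruits the maintenance methyltransferase, read 5.88, 6.75 and 8.32 in WT and 9.49, 6.37 and 8.81 in KO. Its pair A gap of 3.61, or 12.2-fold (5.23-fold without background correction), was the largest of any member, and pairs B and C gave -0.38 and 0.49. The WT values alone spanned 5.88 to 8.32. The group difference of 1.24 (SE 0.90) was about as large as the WT SD (1.24) and smaller than the KO SD (1.64, n = 3 each). Chaf1b, a subunit of the chaperone that lays histones on new DNA, read 6.07, 6.37 and 7.13 in WT and 7.91, 5.93 and 7.38 in KO.

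Other tested probes of the same genes were ordered alike over the pairs. Of 12 further tested probes from 8 members, 11 were higher in KO for pair A, 2 for pair B and 9 for pair C, with medians of 1.38, -0.19 and 0.26. They share their RNA with the first probes and are not replicates of the condition. They also passed the same detection filter, the further Mcm7 and Rrm2 probes with detection on 1 WT and 2 KO arrays each. The 12 are therefore not a neutral sample of the members' probes.

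Further replication genes were taken from a list of 56, of which 39 were tested and 0 passed over all genes. Of these 34 had a higher KO mean, with a median of 0.29, and 2 had an unadjusted p under 0.05, both higher, where 1.49% of all genes were. With the replicate block the count was 4 of 39, beside 4.00% of all genes. The pair medians of the 39 were 0.77, -0.15 and 0.14. E2f2, a second activating E2F factor, differed by 0.97 (SE 0.36), and Prim2, the large primase subunit, by 0.67 (SE 0.28). Timeless, which steadies the moving fork, differed by 0.40 (SE 0.21), and Dbf4, the activator of the Cdc7 kinase, by 0.66 (SE 0.37). Prim2 read 5.14, 5.39 and 5.84 in WT and 6.58, 5.80 and 6.0 in KO. As with Mcm3, each KO culture lay above its partner. Subunits of the origin recognition complex, which are commonly present through the whole cycle, differed in pair A by -0.17 for Orc3, 0.12 for Orc4, 0.33 for Orc5 and 0.79 for Orc6. The last was thus near the pair A median of 0.77 of the 39. In pair B they differed by -0.33, -0.12, -0.38 and -0.26, and in pair C by -0.04, -0.11, 0.12 and 0.16. Orc1, detected on no array, and Orc2, detected on 2, were not tested.

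Genes of mitosis had a similar order of arrays. The summed normalised intensity of the mitosis list was 177, 313 and 809 in WT of pairs A, B and C and 1372, 179 and 1378 in KO, where that of the members was 1726, 2134 and 4374 in WT and 7972, 2063 and 6162 in KO. Of the 15 mitosis genes 13 had a probe, 9 were detected on some array and 5 on all 6. Mki67 and Ccnb1 had no probe, and Ccnb2, Bub1, Ube2c and Cenpe were detected on no array. All 9 tested mitosis genes had a higher KO mean and 0 passed over all genes. Members were thus lowest where the mitosis sum was lowest or next to lowest, and highest in the 2 KO arrays where it was highest. In bulk RNA a smaller share of cycling cells and less transcript per cell cannot be told apart.

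Markers of other cell types also differed between the arrays. The summed intensity of 12 fibroblast markers was 9059 to 10801 over the WT arrays and 13370, 10529 and 18472 in KO of pairs A, B and C, with Postn detected on no array. All 11 tested fibroblast markers had a higher KO mean, with medians of 0.83, -0.10 and 0.89 in the pairs. The summed intensity of 10 epithelial markers was 31457 to 43062 in WT and 28038 to 33169 in KO, and was lowest in KO of pairs A and C. Leukocyte markers with a probe (7 of 10) summed to 5066, 4111 and 1957 in WT of pairs A, B and C and to 4708, 3732 and 3923 in KO, with 6 of the 7 detected on some array and 4 on all, while Ptprc, the pan-leukocyte marker, was detected on none. Among them the T-cell genes Cd3e and Cd3d reached 9.78 and 9.84 in KO of pair C, above its WT partner by 3.25 and 3.79, and the myeloid gene Lyz2 was higher there by 1.32. In pair A these 3 genes differed by -0.36, -0.79 and 0.43. The myeloid gene Cd14 was the brightest leukocyte marker on every array and weighed heavily in the leukocyte sum. It read 12.22, 11.93 and 10.52 in WT and 12.09, 11.73 and 10.27 in KO, lower in KO in each pair. Of the 5 tested leukocyte markers 4 had a higher KO mean, and Cd14 was the 1 with a lower one. Endothelial markers summed to 2760, 3106 and 3489 in WT and to 2426, 6518 and 3751 in KO, and the 5 adipocyte markers to 33 to 46 and 20 to 42. The part of the fibroblast, epithelial and other markers in the members' differences was not tested.

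**Figure D5:**
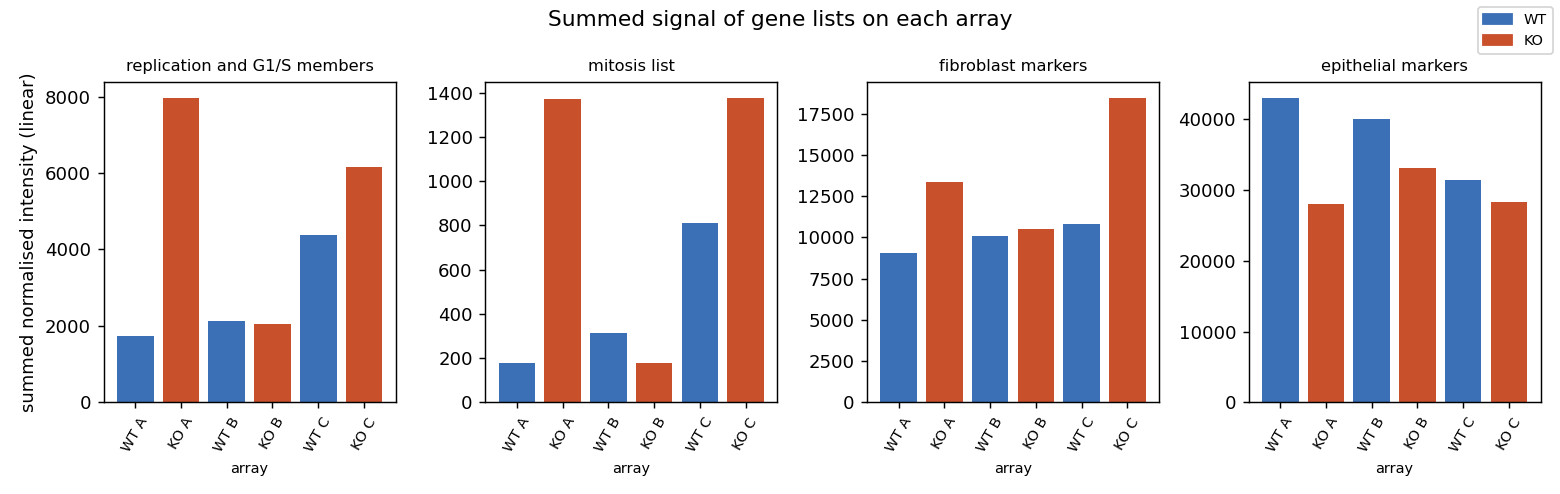
Summed normalised intensity (linear scale, from 0) on each array for the 32 members, the mitosis list, the fibroblast markers and the epithelial markers, WT in blue and KO in red. The members and the mitosis list are high in KO of pairs A and C and next in WT of pair C, fibroblast markers are highest in the same 2 KO arrays, and epithelial markers are lowest there.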

How the data were processed

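RNA of 6 cultures, 3 WT and 3 KO, was made into biotinylated cRNA for Illumina bead arrays, per the labels. Probe intensity was deposited without normalisation, per the file headers. A detection p-value, also deposited for each probe and array, sets the probe against negative control beads. The authors' value table is on a log2 scale and quantile normalised, as its columns hold the same sorted values to within 0.001, with a median of 6.75 in each and ranks equal to the raw ones (Spearman correlation 1). How it treated low values is not stated. The submitters' processing notes name GenomeStudio and lumi.

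Intensities were background-corrected from the detection p-values and quantile normalised with neqc of limma 3.58.1 in R 4.3.3 (offset 16). Probes were named through the platform annotation and a RefSeq gene table (34885 with 1 gene, 18 with several, 10378 unnamed). Of the 32 members all had a probe. limma (lmFit, eBayes, two-sided) shared the spread over all tested probes, and p-values were adjusted by Benjamini-Hochberg over 10416 genes with a threshold of 0.05. The main model has no pair term. Arrays of one letter deviated together from their group means (correlations 0.352, 0.490 and 0.720 in pairs A, B and C), though WT A with KO B gave 0.423, and the fit with the replicate block is given where it moves a count. Members and lists were chosen with earlier results of these data known. Values in every array are given for up to 3 members per role with the smallest p, and 4 genes are named from the list of further replication genes, with the Orc genes added after their values were seen. No array column lacked a sample. Promoter sequences are from RefSeq.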

Additional observations from a re-analysis of the deposited data

How the results depend on the processing

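The median over members kept its sign in every alternative, from 0.29 without background correction and 0.30 on the authors' value table to 0.67 with detection p under 0.01 on all 6 arrays, and from 0.26 to 1.12 when 1 array was left out (lowest without KO replicate A, highest without KO replicate B). It was 1.01 without WT replicate C, 0.42 without WT replicate A and 0.07 with pairs B and C only. The pair A median ranged from 0.87 to 2.01, that of pair B from -0.21 (median scaling, where all genes shifted by -0.31 in that pair) to -0.01, and that of pair C from 0.12 to 0.32. The member count at an adjusted p under 0.05 was 0 throughout. At an unadjusted p under 0.05 it was 2, and 6 with the replicate block, 0 without background correction, on the authors' table, with median scaling, with offset 50, with no detection filter and with pairs B and C only, 1 with the stricter detection filter, and 0 to 21 when 1 array was left out, with 21 without KO replicate B, 7 without WT replicate C, 1 without KO replicate C and 0 without any of the others. The count over all genes was 3, then 1 without background correction, on the authors' table, with offset 50 and with pairs B and C only, 2 with no detection filter, 0 with the stricter filter, and 1 to 2 when 1 array was left out. The replicate block left it at 3. Signs turned for Rfc4 (0.0094 without background correction, 0.0097 on the authors' table, 0.0050 with offset 50, and -0.40 to 0.44 when 1 array was left out), and on leaving out 1 array for Mcm10 (-0.11 to 1.01) and Pcna (-0.12 to 0.19). With pairs B and C only they turned for Mcm7 (-0.067), Mcm10 (-0.17), Gins1 (-0.046), Gins2 (-0.031), Pold1 (-0.019), Pcna (-0.072), Lig1 (-0.20), Tk1 (-0.073) and Chaf1b (-0.10). Probes near background limit what Pole, Pcna, Rfc3, Ccne1, Cdc45, Gins1, Rrm2 and Tk1 can show. Mcm3, Cdc6 and Rfc4 did not meet the stricter detection filter either, so the same limit holds for them.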
